A study of Xenopus laevis with 72 samples.

Results

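The genes cyp26a1.L (gene ID 496314) and cyp26a1.S (gene ID 398094) are the pair of homoeologs, one from each subgenome of the frog Xenopus laevis, that encode the enzyme Cyp26a1. They were taken by symbol from the table of normalized levels and the table of threshold cycles, and are 2 of the 23 target genes measured there by high-throughput quantitative PCR. Wild-type embryos of 6 clutches, named G to L, each the eggs of 1 female, were treated for 2 h, from stage 9.5 to stage 10.25. The treatments were 10 nM all-trans retinoic acid (RA), 50 uM DEAB, which blocks the retinaldehyde dehydrogenases that make RA, and no agent (control), and the labels do not say whether controls received the solvent. After the wash, whole embryos were collected at 0, 1.5, 3 and 4.5 h, which gave 12 groups of 6 samples, 1 sample per clutch in each group and 72 in all. A sample was a pool of 5 to 10 siblings, so that the 6 clutches are the replicates, and in whole embryos fewer expressing cells and less transcript per cell cannot be told apart. Per the methods, clutches used for sequencing were kept only if readouts that included cyp26a1.L responded as foreseen, and it is not stated whether clutches G to L were chosen likewise, which bears on each count of clutches that responded to RA.

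RA is made from retinol in steps of oxidation and acts by binding nuclear receptors that switch on target genes. Cyp26 enzymes are cytochromes P450 that hydroxylate RA and so start its degradation. In vertebrate embryos cyp26a1 is itself a classical RA target, which closes a feedback loop that lowers RA where RA is high, and in the gastrula it keeps parts of the embryo free of RA signal. In the RefSeq gene table of X. laevis, cyp26c1, which encodes another RA hydroxylase, is the gene next to cyp26a1 in both subgenomes.

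Levels were compared on a log2 scale relative to gapdh, with 0 at the median of each gene over the 72 samples. The reference moved with time. The threshold cycle (Ct) of gapdh, which is higher when there is less transcript, had medians of 12.46, 12.81, 13.66 and 13.94 over the 4 times (18 samples per time). Time courses of a single gene therefore depend on this reference. Treatments compared at 1 time do so less, although single clutches can, and L compared with S inside a sample does not. No value of either homoeolog was missing. How many molecules a Ct stands for is not known, so the spread over the 6 clutches is the only measure of precision.

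Both transcripts were among the readily detected ones of the panel. cyp26a1.S had Ct values of 10.04 to 14.64 with a median of 12.58, the lowest median of the 23 target genes. cyp26a1.L had Ct values of 12.03 to 16.82 with a median of 14.29, the fifth lowest. In 71 of the 72 samples L came up later than S, and the gap between them, Ct of L minus Ct of S, had a median of 1.79 cycles. The efficiencies of the pair of assays are not known, so the gap is given as a description and not as a ratio of transcripts.

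In a few samples the homoeologs parted. In RA embryos of clutch G at 0 h the gap was 5.73 cycles, against a median of 2.72 over all samples of that time, with L at a Ct of 16.82, S at 11.09 and gapdh at 11.41, the lowest of its group. In RA embryos of clutch H at 1.5 h it was -1.29, against a median of 1.82, with L at 12.50, S at 13.79 and gapdh at 14.70, the highest of its group. These are the 2 samples in which the gap lay more than 1.5 cycles from the median of its time. In clutch G the gaps of the panel's other 4 homoeolog pairs deviated from the medians of that time by -1.61 to -0.54 cycles, the opposite side. In clutch H they deviated by -5.02 to 0.40. The cause was not tested. Several results that rest on these samples are given with and without them.

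**Figure D1:**
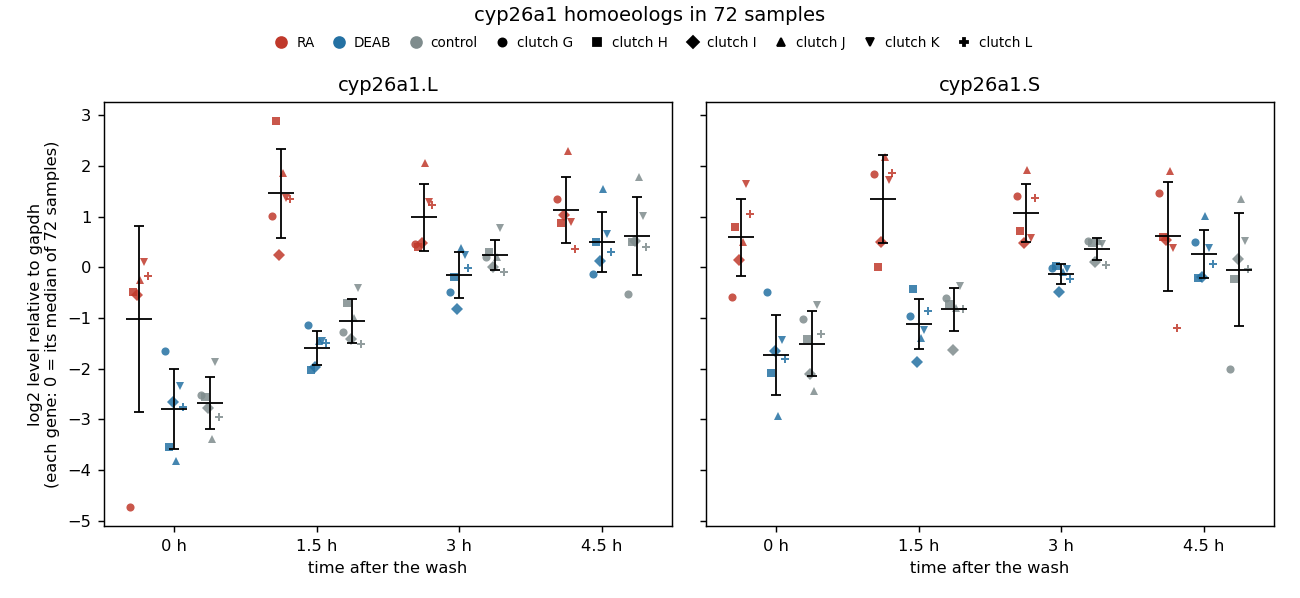
Log2 level relative to gapdh of cyp26a1.L and cyp26a1.S in the 72 samples, by time after the wash and treatment, with a symbol per clutch and black bars for the mean and SD of 6 clutches. RA samples stand above control samples at 0 and 1.5 h, except clutch G for cyp26a1.L at 0 h at -4.72, and the groups overlap at 3 and 4.5 h.

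Levels at the end of the pulse were first compared between RA and control embryos, the question being how far each homoeolog had responded by the wash. cyp26a1.S ranged from -0.58 to 1.64 with a median of 0.65 in RA embryos, and from -2.44 to -0.74 with a median of -1.36 in control embryos. The groups did not overlap and S was higher in 6 of 6 clutches. The difference was 2.10 (95% interval 1.32 to 2.87, limma adjusted p = 7.96e-06), a 4.27-fold higher level. cyp26a1.L ranged from -4.72 to 0.10 with a median of -0.37 in RA embryos, and from -3.38 to -1.86 with a median of -2.66 in control embryos. Its lowest RA value was that of clutch G, below every control value, and the other 5 RA values, -0.55 to 0.10, were above every control value. Its difference was 1.66 (0.82 to 2.51, adjusted p = 8.62e-04), or 2.44 without clutch G (adjusted p = 1.68e-08). In a fit of only the 12 samples compared L no longer passed (adjusted p = 0.147). With RA, 26.1% of the 23 target genes were called higher at this time.

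Clutch G was also the clutch with the smallest response of S at 0 h. S differed there by 0.44, against 2.21 to 2.93 in the other 5 clutches. This small value depends in part on the reference. In Ct, S of clutch G stood at 11.09 in RA and 12.64 in control embryos, with gapdh at 11.41 and 12.52. dhrs3.L, which encodes a reductase that turns retinaldehyde back into retinol and is itself RA-responsive, differed by at least 2.31 in every clutch, clutch G included.

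At 1.5 h after the wash both homoeologs stood clearly above control. cyp26a1.L ranged from 0.25 to 2.88 with a median of 1.36 in RA embryos, and from -1.52 to -0.40 with a median of -1.14 in control embryos. cyp26a1.S ranged from 0.005 to 2.16 with a median of 1.77 in RA embryos, and from -1.64 to -0.38 with a median of -0.77 in control embryos. Relative to gapdh, every RA sample was above every control sample for both homoeologs. L differed by 2.51 (1.66 to 3.35, adjusted p = 1.36e-06), a 5.68-fold higher level, and S by 2.18 (1.40 to 2.95, adjusted p = 3.70e-06), a 4.52-fold higher level, each in 6 of 6 clutches. The background was 39.1% of the target genes called higher. Against the panel mean the differences were smaller but still called, 1.59 for L and 1.26 for S at 1.5 h, and 1.07 and 1.51 at 0 h. That mean includes both cyp26a1 genes and other genes called higher with RA, so it moves with the response and lowers these values by construction. In clutch H the 2 homoeologs went apart, with L at 3.59, the largest difference of the 6 clutches, and S at 0.73, the smallest. In Ct, S of clutch H stood at 13.79 in RA and 13.68 in control embryos, with gapdh at 14.70 and 13.86. Its higher S with RA therefore holds only relative to gapdh, and it was the only such clutch. In Ct the ranges of S overlapped, 10.04 to 13.79 in RA and 12.18 to 13.68 in control embryos. Without the 2 samples with an unusual gap, L differed by 2.19 and S by 2.44, both past the test.

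At 3 h the estimated distance to control embryos was smaller than at 1.5 h for both, a change that is tested below. cyp26a1.L ranged from 0.40 to 2.06 with a median of 0.85 in RA embryos, and from -0.08 to 0.77 with a median of 0.21 in control embryos. cyp26a1.S ranged from 0.48 to 1.92 with a median of 1.04 in RA embryos, and from 0.05 to 0.53 with a median of 0.47 in control embryos. The groups overlapped, although RA exceeded control in 6 of 6 clutches for each homoeolog. The differences were 0.75 for L (-0.09 to 1.60) and 0.72 for S (-0.06 to 1.50), with an adjusted p of 0.309 for each. In fits of only the 12 samples compared both passed narrowly (adjusted p = 0.0478 for L and 0.0472 for S). At this time 17.4% of the target genes were called in either direction.

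At 4.5 h cyp26a1.L ranged from 0.36 to 2.28 with a median of 0.96 in RA embryos, and from -0.54 to 1.78 with a median of 0.51 in control embryos. cyp26a1.S ranged from -1.20 to 1.90 with a median of 0.57 in RA embryos, and from -2.02 to 1.34 with a median of 0.06 in control embryos. The groups overlapped for both, and RA was higher in 4 of 6 clutches for each homoeolog. The differences, 0.51 for L (adjusted p = 0.377) and 0.66 for S (adjusted p = 0.375), did not pass, and 0% of the target genes were called. Relative to gapdh all 23 target genes had a mean difference above 0 at this time, with a median of 0.39. Against the panel mean the differences were 0.063 for L and 0.20 for S. Single samples weighed on S here. Clutch G, with the lowest control value, differed by 3.47 and clutch L, with the lowest RA value, by -1.17. Leaving out 1 clutch at a time moved the difference of S between 0.09 without clutch G and 1.02 without clutch L, and that of L between 0.24 without clutch G and 0.64, with no call.

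**Figure D2:**
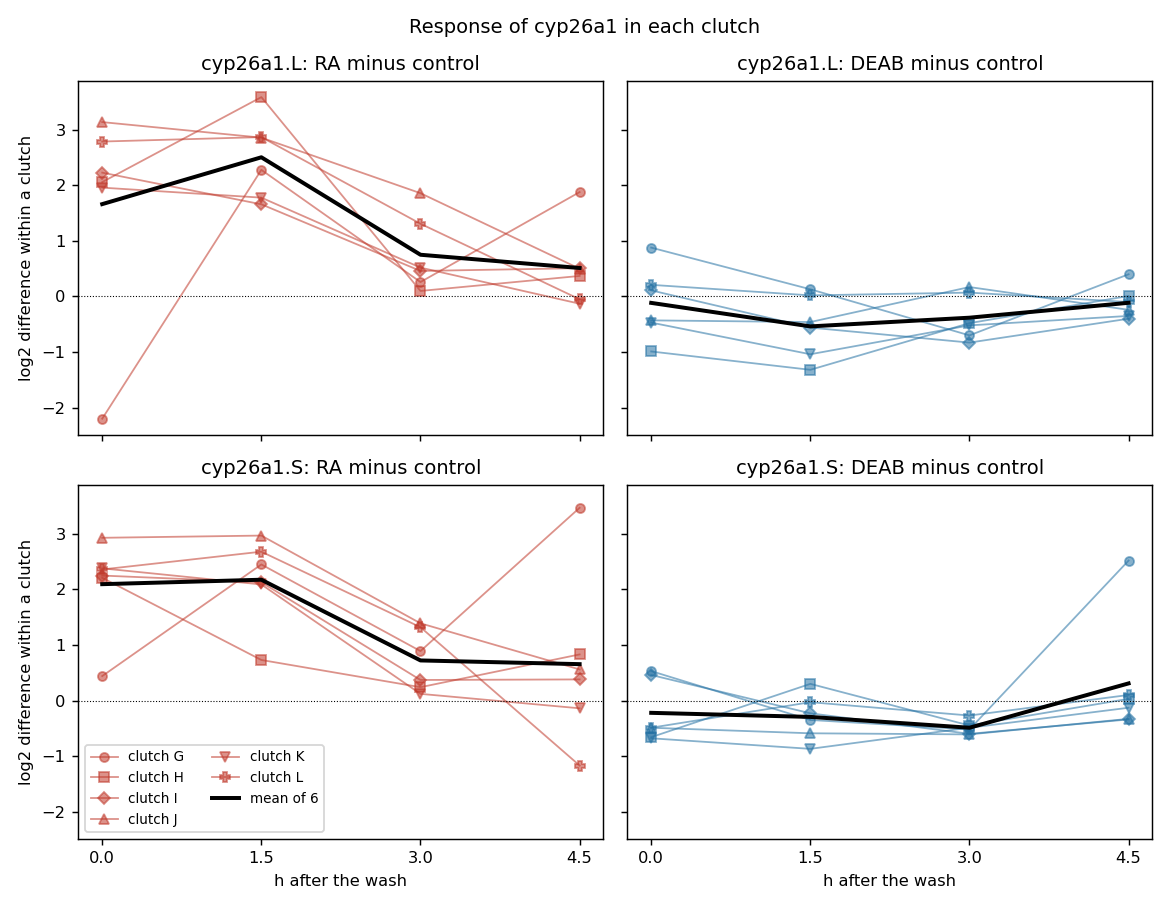
Difference from control within each clutch on the log2 scale over the 4 times, with RA on the left, DEAB on the right, L above and S below, thin lines for clutches and a black line for their mean. The mean RA response is 1.66 and 2.51 for L and 2.10 and 2.18 for S at 0 and 1.5 h, and under 0.8 from 3 h on, while the mean DEAB response lies between -0.54 and 0.31, with S of clutch G at 4.5 h apart at 2.52. The control sample in that difference has the lowest S level of its group, -2.02.

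The change of the RA response over time was tested directly. Limma's F statistic over the 4 times gave an adjusted p of 0.0332 for each homoeolog, with 21.7% of the target genes past it. The largest step in the estimates was a drop between 1.5 and 3 h, by 1.76 for L (adjusted p = 0.0548) and by 1.45 for S (adjusted p = 0.0815). Relative to gapdh, control embryos rose in this step by 1.29 for L and 1.19 for S, while RA embryos differed by -0.47 and -0.27. From Ct alone the values were 0.64 and 0.54 in control embryos and -0.97 and -0.77 in RA embryos. How far the drop lies in either treatment thus depends on the reference. Neither drop of the response passed in the fit with clutch as a block, in which 4.35% of the target genes were called. The 1 gene called was dhrs3.L (-1.34, adjusted p = 0.00640), so a drop in this step was not particular to cyp26a1. Shares of target genes called were not counted in the other fits that follow for this drop. Both cyp26a1 drops passed with a block for each clutch and time (adjusted p = 0.0482 for each). They also passed without the 2 samples with an unusual gap (-1.44 for L and -1.72 for S, adjusted p = 0.0138 and 0.0153), and L passed without clutch G (-1.70, adjusted p = 0.0128). The F result depended on the set of clutches. Without clutch G the adjusted p was 2.77e-05 for L and 5.11e-04 for S. Without the 2 samples with an unusual gap it was 1.07e-04 for L and 0.00250 for S. Without clutch H, I, J, K or L in turn it lay between 0.0582 and 0.192 for both, so that the call was lost each time. The steps from 0 to 1.5 h (0.84 for L and 0.08 for S, 4.35% of the target genes called) and from 3 to 4.5 h (-0.24 and -0.07) did not pass.

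With DEAB, which lowers RA production, no difference from control was called for either homoeolog. At 0 h cyp26a1.L ranged from -3.82 to -1.64 in DEAB embryos and from -3.38 to -1.86 in control embryos, and cyp26a1.S from -2.92 to -0.50 in DEAB embryos and from -2.44 to -0.74 in control embryos. The ranges overlapped almost fully. The differences over the 4 times were -0.12, -0.54, -0.38 and -0.11 for L and -0.22, -0.30, -0.49 and 0.31 for S, none past the test (adjusted p of 0.760 to 0.986). No target gene was called at any time (0%). At 0 h the 95% interval was -0.96 to 0.73 for L and -1.001 to 0.56 for S. For the lowest estimate of each homoeolog it was -1.38 to 0.31 for L at 1.5 h and -1.27 to 0.29 for S at 3 h. Changes within these intervals, decreases included, are not excluded. At 4.5 h S in clutch G differed by 2.52, while the median of the 6 clutches was -0.05. The DEAB sample of clutch G, at 0.505, lay inside the DEAB range of -0.205 to 1.015. Its control sample, at -2.02, was the lowest of the control group.

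S at 3 h was the DEAB comparison with the tightest clutches. It ranged from -0.50 to 0.02 with a median of -0.06 in DEAB embryos, and from 0.05 to 0.53 with a median of 0.47 in control embryos. Relative to gapdh, every DEAB sample was below every control sample, by 0.27 to 0.61 within clutches. In Ct the groups overlapped, at 12.52 to 13.25 in DEAB and 11.48 to 13.39 in control embryos. The mean difference from Ct alone was -0.49. The limma fit, whose spread comes from all 12 groups, gave an adjusted p of 0.760. A fit of only the 12 samples compared did not call it either. This comparison was picked for its tight clutches, and how many other target genes separated likewise was not counted. L at the same time was lower in 4 of 6 clutches, with a range of -0.82 to 0.38 in DEAB embryos and -0.08 to 0.77 in control embryos.

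Set against DEAB embryos, RA embryos had higher levels of both homoeologs at 0, 1.5 and 3 h. L was higher by 1.78 at 0 h, 3.05 at 1.5 h and 1.13 at 3 h (adjusted p = 3.48e-04, 1.52e-08 and 0.0313), and S by 2.32, 2.47 and 1.21 (adjusted p = 1.25e-06, 2.79e-07 and 0.0132). At 0 h L was 2.75 higher without clutch G, where RA was below DEAB. Without the 2 samples with an unusual gap the difference at 1.5 h was 2.73 for L and 2.73 for S. At 1.5 and 3 h no RA sample of either homoeolog fell into the DEAB range. At 4.5 h the differences were 0.63 and 0.35 and did not pass. The shares of target genes called higher were 39.1%, 43.5% and 30.4% at 0, 1.5 and 3 h, and 0% were called at 4.5 h. The call at 3 h was fragile for L, whose adjusted p was 0.102 without clutch I, 0.0945 without clutch J, 0.0824 without clutch K and 0.0989 without clutch L. For S it was 0.0501 without clutch L. Against the panel mean neither passed at 3 h (0.64 for L and 0.71 for S). In a fit of only the 12 samples compared, L at 0 h did not pass (adjusted p = 0.171) and L at 4.5 h did (adjusted p = 0.0240).

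The time course of control embryos shows what the pulses were laid over. cyp26a1.L rose by 1.63 between 0 and 1.5 h (adjusted p = 8.69e-04) and by 1.29 between 1.5 and 3 h (adjusted p = 0.00627), and differed by 0.38 in the last step, which did not pass. Over the whole 4.5 h it rose by 3.29 (2.44 to 4.14, adjusted p = 2.49e-10), and every control sample at 4.5 h was above every control sample at 0 h. cyp26a1.S differed by 0.68 in the first step (adjusted p = 0.134), rose by 1.19 in the second (adjusted p = 0.00627) and differed by -0.40 in the third (adjusted p = 0.473). Its rise over 4.5 h was 1.46 (0.68 to 2.24, adjusted p = 4.88e-04), in 5 of 6 clutches, with clutch G at -0.99. The background of target genes called higher was 47.8%, 73.9% and 82.6% for the first step, the second step and the whole 4.5 h, and 34.8% were called in either direction in the third step.

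These rises are relative to gapdh, and the reference weighed on them. From Ct alone the second step was 0.64 for L and 0.54 for S, and neither passed. Taken from Ct alone, L in control embryos rose by 2.00 over 4.5 h and S differed by 0.17, no longer a call. Against the mean of the panel, most of whose genes rose themselves, L differed by 0.049 and S fell by 1.78 over 4.5 h, the opposite direction for S. The median of the 23 target genes over this interval was 4.09 relative to gapdh, 2.80 from Ct alone and 0.85 against the panel mean.

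In RA embryos the time courses of the homoeologs differed, as they did in control and DEAB embryos (L minus S is tested below). cyp26a1.L was higher by 2.47 at 1.5 h than at 0 h (1.62 to 3.31, adjusted p = 9.57e-07), every 1.5 h sample above every 0 h sample, and by 1.43 without the 2 samples with an unusual gap (adjusted p = 1.35e-04). cyp26a1.S differed by 0.76 in that step (-0.02 to 1.54, adjusted p = 0.0687), by 1.07 without clutch H, which passed (adjusted p = 0.0266), and by 0.42 without clutch G. No later step passed for either relative to gapdh. From Ct alone L fell by 0.97 between 1.5 and 3 h (adjusted p = 0.0393). Against the panel mean L and S fell by 1.35 and by 1.15 in that step, and S fell by 1.32 in the last (adjusted p = 0.00352, 0.00667 and 0.00482). Over the 4.5 h L rose by 2.14 (adjusted p = 6.04e-06, or 1.35 without clutch G), and S differed by 0.02 (-0.76 to 0.80). The shares of target genes called higher were 69.6% for the first step and 87% for the whole 4.5 h, and 47.8% were called in either direction in each later step. From Ct alone S fell by 1.60 over the 4.5 h and L differed by 0.52, and against the panel mean both fell, by 0.96 for L and by 3.08 for S.

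S in RA embryos at 0 h, 0.59 ± 0.77 (SD, n = 6), stood at about the level that control embryos had at 3 h, 0.36 ± 0.22, and 4.5 h, -0.05 ± 1.11. The 5 RA values of L at 0 h other than clutch G, -0.55 to 0.10, lay between the control ranges at 1.5 h, -1.52 to -0.40, and 3 h, -0.08 to 0.77, and touched both. These levels at different times are given side by side, with no test, and they hold only relative to gapdh. In Ct, S in RA embryos at 0 h stood at 10.82 ± 0.52, against 12.38 ± 0.63 and 12.95 ± 1.30 in control embryos at 3 and 4.5 h, a higher level at the end of the pulse.

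In DEAB embryos L rose by 1.20 (adjusted p = 0.0101) and 1.44 (adjusted p = 0.00248) in the first 2 steps and differed by 0.65 in the third. S differed by 0.60 (adjusted p = 0.162), rose by 0.99 (adjusted p = 0.0197) and differed by 0.40. Over 4.5 h L rose by 3.29 and S by 1.99 (adjusted p = 2.27e-10 and 4.69e-06). The backgrounds were 65.2%, 69.6% and 91.3% called higher for the first step, the second step and the whole 4.5 h, and 43.5% in either direction for the third step. The reference weighed on the single steps. From Ct alone L differed by 0.67 and 0.70 in the first 2 steps and S by 0.24 in the second, and against the panel mean by 0.038 and 0.17 for L and by -0.28 for S, none a call. Leaving out single clutches also ended calls, for L in the first step without clutch J (adjusted p = 0.0539) and for S in the second without clutch I or K (adjusted p = 0.0717 and 0.0636), while S in the first step became a call without clutch G (adjusted p = 0.0496). Over 4.5 h, from Ct alone L rose by 2.03 and S differed by 0.73, no longer a call. Against the panel mean L differed by -0.070 and S fell by 1.37 over 4.5 h.

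The comparison of L with S inside each sample, in which the reference gene cancels, showed that the gap between the homoeologs closed with time. In RA embryos the gap was 3.19 ± 1.29, 1.48 ± 1.37, 1.68 ± 0.54 and 1.07 ± 0.56 cycles at 0, 1.5, 3 and 4.5 h. In DEAB embryos it was 2.65 ± 0.22, 2.06 ± 0.59, 1.60 ± 0.38 and 1.35 ± 0.47 cycles at the same times, and in control embryos 2.76 ± 0.36, 1.81 ± 0.37, 1.71 ± 0.23 and 0.93 ± 0.42 (SD, n = 6 each). Over all treatments the gap at 0 h was never below 2.26 and that at 4.5 h never above 2.23, so that the 18 samples of each of these times did not overlap.

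**Figure D3:**
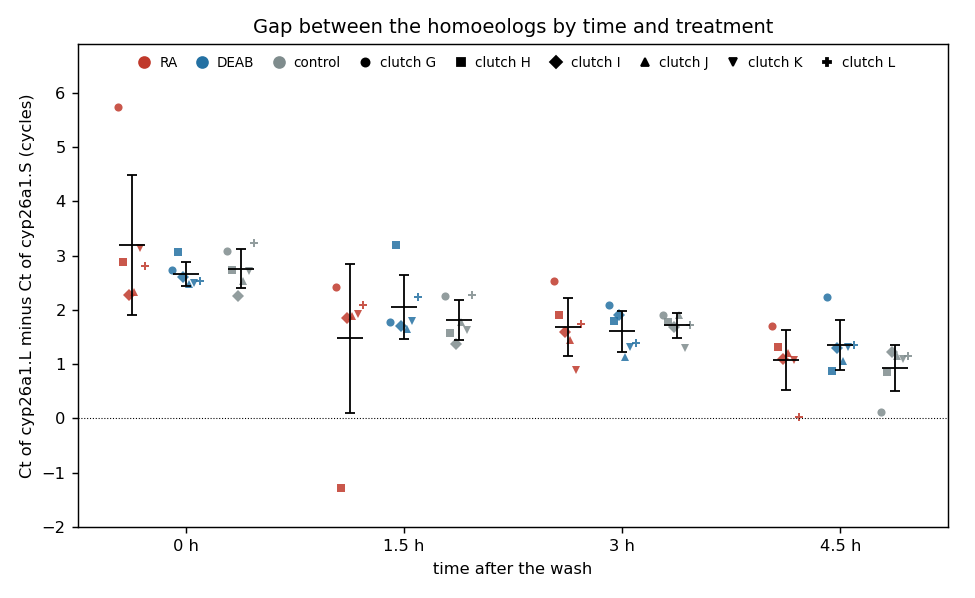
Ct of cyp26a1.L minus Ct of cyp26a1.S in each of the 72 samples, by time after the wash and treatment, with a symbol per clutch and black bars for mean and SD of 6 clutches. The gap is at least 2.26 cycles in every sample at 0 h and at most 2.23 in every sample at 4.5 h, and the RA samples of clutch G at 0 h and clutch H at 1.5 h stand apart.

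On the log2 scale L gained on S between 0 and 4.5 h by 2.12 in RA embryos (1.35 to 2.88, adjusted p = 3.26e-06 over 5 homoeolog pairs), by 1.30 in DEAB embryos (0.53 to 2.07, adjusted p = 0.00201) and by 1.83 in control embryos (1.06 to 2.59, adjusted p = 2.80e-05), each in 6 of 6 clutches. Without the 2 samples with an unusual gap the value in RA embryos was 1.67. A change between the homoeologs over 4.5 h was not particular to cyp26a1. In each treatment 60% of the 5 pairs of the panel were called. In control embryos the directions differed, and rdh10, which encodes a retinol dehydrogenase, showed L gaining on S by 1.81 (adjusted p = 2.80e-05), and crabp2, which encodes a cellular RA-binding protein, showed L falling behind by 2.07 (adjusted p = 0.00180). Dividing each homoeolog by its own SD over the 72 samples left the change called in RA and control embryos and not in DEAB embryos.

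The single steps showed when the gap moved. In control embryos L gained 0.95 on S in the first step, by 0.76 to 1.16 within clutches, 0.10 in the second and 0.78 in the third, by 0.20 to 1.79. The first and the third step were positive in 6 of 6 clutches but did not pass in the fit of all samples (adjusted p = 0.0804 and 0.137, 0% of the 5 pairs called), whose spread includes the samples that stood apart. Without those 2 samples both passed (adjusted p = 9.18e-04 and 0.00857). The 2 are RA samples picked for this very gap. Leaving them out did not move the control estimates and only lowered their standard error, from 0.38 to 0.24. These passes therefore follow in part from how the samples were chosen. The first step also passed in a fit of its 12 samples alone (adjusted p = 4.16e-04), and the third did not pass in its own. In DEAB embryos the steps were 0.60, 0.45 and 0.25 and none passed (20% of the pairs were called in the second). In RA embryos the first step was 1.71 (adjusted p = 1.68e-04, the 1 pair of 5 called, 20%), but 0.68 without the 2 samples (adjusted p = 0.0613), and the later steps, -0.20 and 0.61, did not pass. Without the 2 samples the second step in RA embryos was 0.38 and did not pass.

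On the log2 scale the response to the pulse was not detectably different between the homoeologs. L minus S differed between RA and control embryos by -0.43 (-1.20 to 0.33), 0.33 (-0.43 to 1.10), 0.03 (-0.74 to 0.80) and -0.14 (-0.91 to 0.62) at the 4 times. Within clutches the value at 0 h was -2.64 in clutch G and -0.42 to 0.43 in the other 5. At 1.5 h it was 2.86 in clutch H and -0.47 to 0.19 in the others. Without these 2 samples, which were picked for this very gap, the differences were 0.02 and -0.25. Between DEAB and control embryos the values were 0.11, -0.24, 0.11 and -0.42. None passed (adjusted p of 0.459 to 0.938), no pair of the 5 was called at any time (0%), and the intervals leave room for differences of up to about 1.2 log2 units. With each homoeolog divided by its own SD, the RA difference at 0 h was a call (-0.75 SD, adjusted p = 0.0462). That fit includes clutch G and was not run without the 2 samples. The group means of L spanned 4.25 log2 units and those of S 3.07, so equal log2 responses come out smaller for L on this scale. On the log2 scale the effect on L minus S did not change detectably over the 4 times (F statistic, adjusted p = 0.993 for RA and 0.743 for DEAB).

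Of the other 5 measured genes whose products lower RA or its precursor, cyp26c1.L, cyp26c1.S and dhrs3.L were compared with cyp26a1. At 0 h dhrs3.L was higher by 2.68 in RA than in control embryos, while cyp26c1.L and cyp26c1.S differed by 0.77 and 0.41 and did not pass (adjusted p = 0.256 and 0.615). At 1.5 h these 3 genes and both cyp26a1 genes were called, between 1.97 for cyp26c1.S and 2.51 for cyp26a1.L. At 3 h cyp26c1.L (1.64), cyp26c1.S (1.30) and dhrs3.L (0.93) were still called, while cyp26a1.L (0.75) and cyp26a1.S (0.72) were not. The standard error was 0.24 for dhrs3.L, against 0.42 for cyp26a1.L and 0.39 for cyp26a1.S. A call in 1 gene and none in another is not a test of their difference, which is given below. At 4.5 h none of the cyp26a1 and cyp26c1 genes or dhrs3.L passed, with cyp26c1.L at 1.50 (adjusted p = 0.0582).

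**Figure D4:**
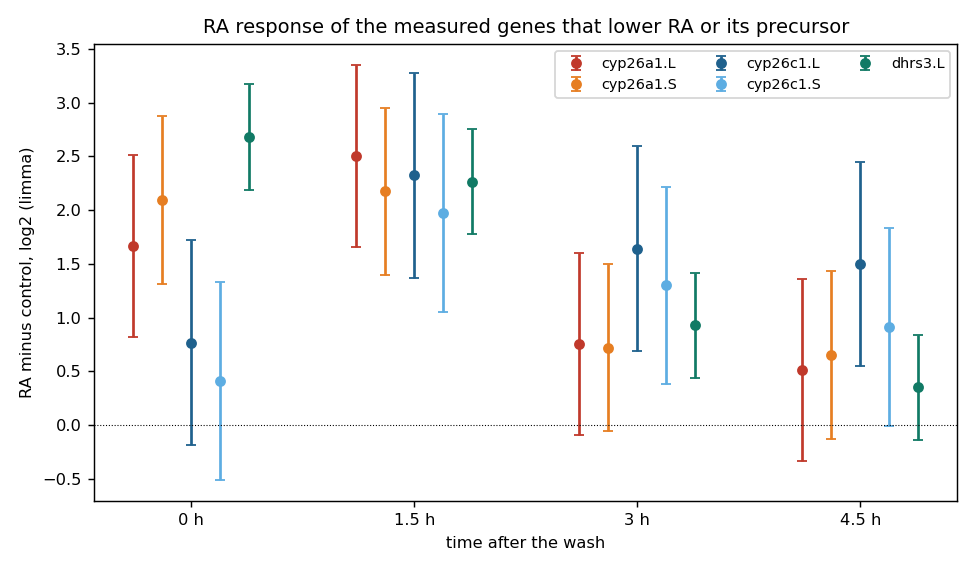
RA minus control on the log2 scale at each time for both homoeologs of cyp26a1, both of cyp26c1 and dhrs3.L, with points for limma estimates and bars for 95% intervals. At 0 h cyp26a1.L (1.66), cyp26a1.S (2.10) and dhrs3.L (2.68) lie above the cyp26c1 genes (0.77 and 0.41), and at 3 and 4.5 h both cyp26c1 genes lie above the cyp26a1 genes.

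Whether cyp26a1 responded differently from these genes was tested on 4 within-sample differences at 4 times. None of the 16 passed (0%). At 0 h cyp26a1.S exceeded cyp26c1.S in its response by 1.69 (0.46 to 2.91, adjusted p = 0.119) and cyp26a1.L exceeded cyp26c1.L by 0.90 (-0.27 to 2.06, adjusted p = 0.353). Without clutch G these were 2.10 and 1.68 and both passed (adjusted p = 0.0157 and 0.0247), and they also passed with each gene divided by its own SD (adjusted p = 6.28e-04 and 0.0355). On that scale the differences from the same genes at 1.5 h passed as well (1.08 SD for S and 0.80 SD for L, adjusted p = 0.0355 for each). On the log2 scale they were 0.20 for S and 0.18 for L (adjusted p = 0.773 for each). The SD over the 72 samples includes the change of a gene with time. In control embryos cyp26c1.L and cyp26c1.S rose by 6.49 and 5.80 over 4.5 h, against 3.29 and 1.46 for cyp26a1. This scale therefore shrinks responses of cyp26c1 more than those of cyp26a1. At 3 and 4.5 h the signs were the other way, with cyp26a1.L below cyp26c1.L in its response by 0.89 and 0.99 (adjusted p = 0.353 for each). Against dhrs3.L, L differed by -1.02 and S by -0.59 at 0 h (adjusted p = 0.119 and 0.353), or by -0.32 and -0.33 without clutch G. At 3 h L and S differed from dhrs3.L by -0.18 and -0.21 (adjusted p = 0.773 for each).

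In the list of 7 genes that reduce retinaldehyde or degrade RA, which holds both homoeologs, 3, 5, 3 and 0 were called higher with RA at 0, 1.5, 3 and 4.5 h and none lower, beside 6, 9, 4 and 0 of all 23 target genes. Both cyp26a1 genes were in the counts at 0 and 1.5 h and neither at 3 h. The median difference of the other 5 genes was 0.41, 1.97, 0.93 and 0.38, beside 0.16, 0.19, 0.13 and 0.38 over the 21 target genes other than cyp26a1. Of the 5 genes of RA synthesis and the 4 genes of binding and transport, none was called in either direction at any of the 4 times. Of the 7 hox genes, which RA induces along the body axis, 3, 4, 1 and 0 were called higher. With DEAB no gene of any list was called.

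The order of the 12 groups by mean level was much alike for both homoeologs. DEAB embryos at 0 h were lowest (-2.79 ± 0.79 for L and -1.73 ± 0.80 for S), control embryos at 0 h next, and RA embryos at 1.5 h highest (1.46 ± 0.88 for L and 1.35 ± 0.87 for S). No 2 neighbours in either order had ranges that were apart. The places differed most for RA embryos at 0 h, place 5 of 12 from below for L and place 9 for S. The group means of L spanned 4.25 log2 units and those of S 3.07, which ranked 13 and 15 of the 23 target genes from the widest, and the residual SDs of 0.74 and 0.68 were close to the panel's median of 0.74.

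Over the 12 group means L and S correlated with r = 0.90, and dhrs3.L was the gene most like L (r = 0.98) and, level with L, most like S (r = 0.90). Over the 8 mean differences from control r was 0.97 between L and S, 0.94 between L and dhrs3.L and 0.97 between S and dhrs3.L. The neighbouring cyp26c1 genes were less alike, with 0.79 and 0.78 to L and 0.75 and 0.68 to S over these 8 points. All points share the gapdh values, the RNA samples and, for the differences, the control samples. Sample by sample, after removal of group and clutch means, L and S correlated with r = 0.59 over 72 samples. Over 70, without the 2 samples with an unusual gap, r was 0.79. Those 2 were picked because L and S disagreed in them, so the higher r follows from the choice. From Ct alone, where L and S still share the amount of RNA in a sample, the values were 0.58 and 0.81.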

How the data were processed

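As the methods describe, 5 to 10 embryos were pooled per sample, and their cDNA was preamplified and run on microfluidic arrays. The authors deposited 2 tables, of Ct values (a score per gene and sample, the median of 3 preamplification runs, 2 of which held primers for a given homoeolog) and of log2 levels. The deposited log2 values equalled the Ct of gapdh minus that of the gene minus its median over the samples, in 1709 of 1709 values within 0.001. Unequal efficiency and preamplification can alter differences, and any shift of gapdh shifts all target genes. Primer specificity for L and S was not checked here.

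Sample titles gave the group and the clutch. The main test was limma 3.58.1 in R 4.3.3 (lmFit, eBayes) on log2 values of all 72 samples, with 12 groups, clutch as a fixed block and Benjamini-Hochberg adjustment over the 23 target genes (5 pairs for L minus S, 16 tests against cyp26c1 and dhrs3.L), at a threshold of 0.05. Samples were paired by clutch letter, since siblings from 1 female share it. No sample was imputed or dropped. The code was tested on simulated data.

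The 2 genes, the lists and the tests were chosen with earlier results of these data known. The contrasts over 4.5 h, the steps of L minus S in RA and DEAB embryos, and the fits without the 2 samples with an unusual gap were added after seeing the data. By rule, named beside the pair were cyp26c1.L, cyp26c1.S, dhrs3.L and the genes most like each homoeolog over group means and over responses. Some genes stay in every fit and count but are not reported here singly. Names and neighbours came from the RefSeq table of assembly Xenopus_laevis_v10.1. The files name no genome build.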

Additional observations from a re-analysis of the deposited data

Results flagged for a closer look

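In RA embryos at 0 h cyp26a1.L stood at -4.72 in clutch G, against -0.55 to 0.10 in the other 5 clutches, a sample far from the rest of its group. In control embryos at 1.5 h cyp26a1.S stood at -1.64 in clutch I, against -0.82 to -0.38 in the others, again a sample far from its group. These were 2 of the 24 groups of 6 examined, and chance flags about 1 in 20. The RA response of both homoeologs differed between times by the F statistic (adjusted p = 0.0332 for cyp26a1.L and 0.0332 for cyp26a1.S).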

How the results depend on the processing

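Across 92 values and 1170 recalculations, 1091 kept their side of the threshold (56 of them values without a call that took the other sign), 41 lost a call, 29 gained one and 9 turned the sign of a value. Of the 28 calls, 9 held under every alternative run. RA minus control kept its calls at 0 and 1.5 h for both homoeologs under every alternative except the fit of only the 12 samples compared, which lost L at 0 h (1.66, adjusted p = 0.147) and gained L and S at 3 h (0.75 and 0.72). That fit also gained S in control embryos from 0 to 1.5 h (0.68) and L minus S there (0.95), and lost L minus S in RA embryos from 0 to 1.5 h (1.71). The other references changed no call of RA minus control, but against the panel mean its values at 3 and 4.5 h were 0.36 and 0.063 for L and 0.33 and 0.20 for S. Against the panel mean, L in control embryos had 0.57 in the first step, -0.11 in the second and 0.049 over 4.5 h, and S had -0.37 in the first, -0.21 in the second, -1.19 in the last (a gained call) and -1.78 over 4.5 h. From Ct alone the second step was 0.64 for L and 0.54 for S, and S over 4.5 h was 0.17. Signs also turned over 4.5 h against the panel mean in RA embryos (-0.96 for L and -3.08 for S) and DEAB embryos (-0.070 and -1.37), for S in DEAB embryos from 1.5 to 3 h (-0.28), and from Ct alone for S in RA embryos (-1.60). The F statistic of the RA response gave an adjusted p of 0.0577 with no replicate block and 0.0894 against the panel mean, and 2.77e-05 to 0.192 for L and 5.11e-04 to 0.192 for S when 1 clutch was left out. Without the replicate block RA minus control at 0 h was 1.66 for L (adjusted p = 0.00175), and with a clutch-by-time replicate block the drop of the response from 1.5 to 3 h passed (-1.76 for L and -1.45 for S). Leaving out 1 clutch moved that drop between -1.91 and -1.41 for L, a call without clutch G (-1.70). Without the 2 samples with an unusual gap it was -1.44 for L and -1.72 for S, both calls, and L minus S in RA embryos from 0 to 1.5 h was 0.68, no call. L minus S in control embryos was then 0.95 and 0.78 in the first and last step, both calls. The 2 are RA samples picked for this gap, so the control values did not move and only their standard error fell. On the scale of each homoeolog's own SD, run with all 72 samples only, L minus S was -0.75 for RA minus control at 0 h, a call, and 0.37 for DEAB embryos over 4.5 h, no call. Apart from changes that follow from fewer samples, the cause was not tested. The number of clutches limits precision.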
